A study of Oryza sativa with 2 samples.

Results

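The circadian clock genes OsLHY, OsPRR73, OsPRR37, OsPRR95, OsPRR1, OsGI and OsPCL1 were examined in the developing collar of rice, where the blade of a leaf meets its sheath. These 7 genes are 7 of 14742 genes measured under a single annotated identity. They were found by symbol or synonym, and they carry 10 probe sets. OsPRR95 was chosen by its signals on these same arrays, and the other 6 genes were added as members of the same clock. The difference of OsPRR95 is therefore given as a description and not as a finding of a search.

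One sample was of wild type rice, and the other was of AntiOsLIC rice of line 2, with 1 array for each. The AntiOsLIC plants carried the whole OsLIC cDNA, reversed, behind the maize ubiquitin promoter, which is active in most tissues. Both were raised on medium and then in 1 field under the same temperature until heading. Each array took RNA from 30 pooled collars, 1 collar from each plant, so that the pool hides the spread between plants and a single transgenic line stands for the construct. The hour at which the collars were cut is not given in the sources used here. A difference in hour, between pools or in handling cannot be told apart from the genotype.

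The circadian clock of plants is a set of genes that repress and activate each other in turn through the day. OsLHY encodes a MYB transcription factor whose transcript peaks around dawn. The pseudo-response regulators (PRR) follow it in waves, with OsPRR73 and OsPRR37 in the earlier part of the day, OsPRR95 later and OsPRR1, the counterpart of Arabidopsis TOC1, towards dusk. OsGI and OsPCL1, the counterparts of Arabidopsis GIGANTEA and LUX, are evening genes. Through OsGI and OsPRR37 the clock also sets heading date by day length.

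Values are signals of probe sets from GCOS, the software of the array's maker, scaled so that both arrays share an overall intensity of 500. Signals under 20 were set to 20 before a log2 ratio of antisense OsLIC over wild type was taken. Probe sets needed a signal of 100 on at least 1 array, and 2-fold was the limit for counting a difference. With 1 array per condition no significance test was possible, no value has an error, and precision is limited by the number of arrays. A bulk signal cannot tell fewer cells of a type from less RNA per cell. OsLIC itself was brighter in the antisense collars, with a signal of 2069 there against 219.8 in the wild type. The target of the construct thus went against the label, and whether its probe set also reads the antisense transcript was not checked. Whether the array labels were exchanged cannot be told from these signals, and an exchange would turn every direction given here, that of OsPRR95 included. Arrays and directions are those of the labels in all that follows.

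OsPRR95 had a signal of 12524 on the wild type array and 1106 on the antisense OsLIC array. It was 11.3-fold lower in the antisense collars, a log2 ratio of -3.50. It was the only one of the 7 clock genes past 2-fold in its brightest probe set, and none was 2-fold higher. Over all genes by their brightest probe set, 2.85% were at least 2-fold lower and 3.73% at least 2-fold higher. Over probe sets the shares were 4.64% and 5.28%, and among those with a signal of 500 or more they were 2.01% and 2.54%. Since OsPRR95 was picked for its fall, the count of 1 lower gene carries no weight against these shares.

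**Figure D1:**
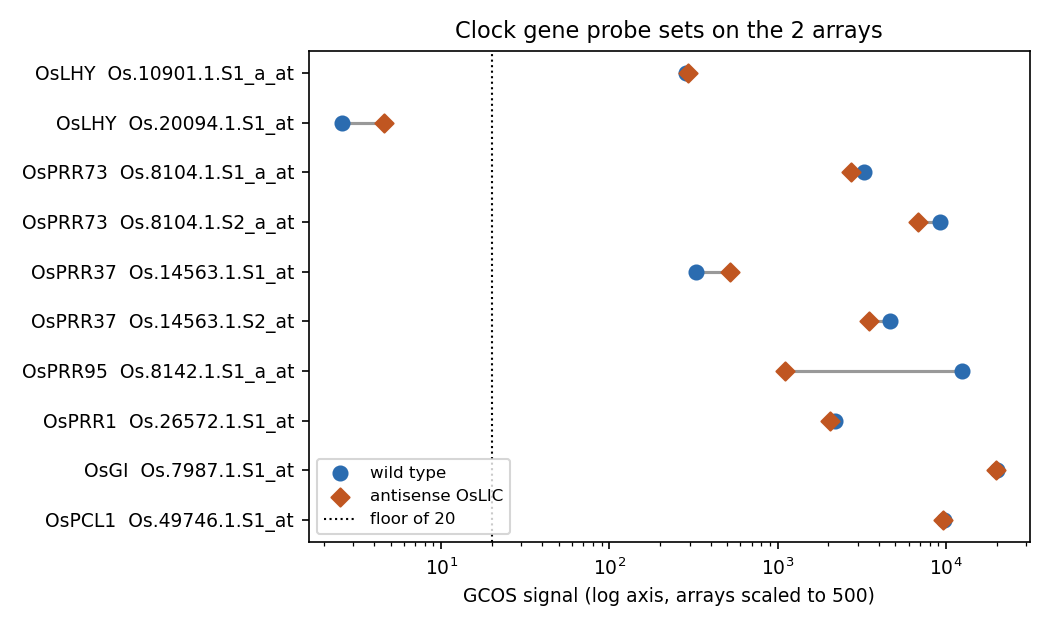
Signal of each of the 10 clock gene probe sets on the wild type array (circles) and the antisense OsLIC array (diamonds), on a log axis of GCOS signal, with the floor of 20 dotted. The line of OsPRR95 runs from 12524 to 1106, while the circle and the diamond lie close together for OsGI, OsPCL1, OsPRR1 and the brighter OsLHY probe set.

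The fall of OsPRR95 lay far out for a bright probe set. Of 26697 probe sets past the minimum, 26 had a log2 ratio as low as OsPRR95 or lower, OsPRR95 included. Of the 15232 with a signal of 500 or more there were 19. Among the 561 probe sets that were at least as bright as OsPRR95 on their brighter array, OsPRR95 was the lowest, and 12 of them were at least 2-fold lower. The central part of these 561 probe sets, from the 5th to the 95th percentile, had log2 ratios from -0.60 to 0.69. OsPRR95 was picked for its fall, and the 561 were cut at its own signal. Its ranks therefore describe the fall and carry no weight as support for it. OsPRR95 is read by a single probe set, made to AK067314, whose suffix _a_at stands for probes shared by transcript forms of 1 gene. No second probe set of OsPRR95 was there to compare it with.

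**Figure D2:**
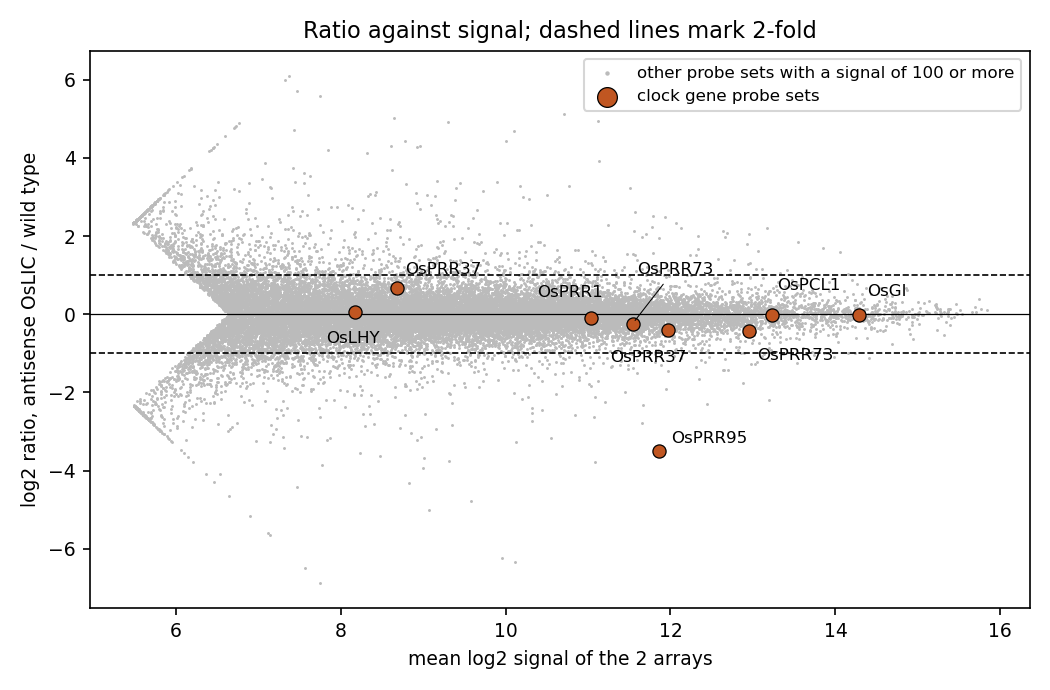
Log2 ratio of antisense OsLIC over wild type against the mean log2 signal of the 2 arrays, for 26697 probe sets with a signal of 100 or more, with the 9 clock gene probe sets among them marked and 2-fold drawn as dashed lines. OsPRR95, at -3.50, lies below nearly all probe sets of its brightness, and the other 8 clock gene probe sets lie between the dashed lines.

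The other pseudo-response regulators differed much less between the arrays. OsPRR73 had signals of 9213 in the wild type and 6821 in the antisense collars by its brighter probe set, a log2 ratio of -0.43. Its other probe set had signals of 3239 and 2736, a log2 ratio of -0.24. Both OsPRR73 probe sets were thus lower in the antisense collars, neither by 2-fold. OsPRR37, also known as the heading date gene DTH7, had signals of 4629 and 3476 by its brighter probe set, a log2 ratio of -0.41. By its dimmer probe set it had signals of 327 and 519, a log2 ratio of 0.67. The probe sets of OsPRR37 therefore ran in opposite directions, and no direction is given for this gene. RefSeq lists 20 transcripts for OsPRR37 and 9 for OsPRR73 against 1 each for OsPRR95 and OsPRR1, and which of them each probe set reads was not tested. OsPRR1 had signals of 2176 and 2033, a log2 ratio of -0.10.

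The evening genes had nearly the same signal on both arrays. OsGI, a large nuclear protein that links the clock to flowering, had signals of 20084 in the wild type and 19821 in the antisense collars, a log2 ratio of -0.02. OsPCL1, a MYB-like DNA-binding protein of the evening complex, had signals of 9685 and 9623, a log2 ratio of -0.01. These were the smallest differences among the 7 genes, 1.01-fold each.

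The dawn gene OsLHY was also close between the arrays. Its probe set made to AY452478 had signals of 284 and 294, a log2 ratio of 0.05. Its second probe set, made to BM418830, had signals of 2.56 and 4.59, both under the floor, and gave no usable ratio. OsLHY thus rests on 1 probe set of modest signal.

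The 6 clock genes other than OsPRR95 had log2 ratios from -0.43 to 0.05, with a median of -0.06. The median over all 14742 genes was -0.01. Between OsPRR95 and the next lowest, OsPRR73, lay a gap of 3.07 on the log2 scale, while the other 6 genes together spanned 0.49 by their brightest probe sets. Over all 8 of their probe sets past the minimum the span was 1.10, since the dimmer probe set of OsPRR37 stood at 0.67. The dawn gene and both evening genes were within 1.04-fold, and OsPRR1 within 1.07-fold. These 8 probe sets all lay between the 5th and 95th percentile of probe sets past the minimum, -0.96 and 1.03. No pattern along the daily order is read from them, since OsPRR95 was picked for its fall and OsPRR37 has no single direction. The levels of different genes were not set against each other, since probe sets differ in how brightly they report the same amount of RNA. The hour of day that the collars stand for was therefore not read from these signals, and with 1 array per condition no daily course was measured.

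Few other clock genes could be read. Of 10 further genes listed for the clock, 2 were found by name in the gene table and 1 had a probe set. This was EL1, also called Hd16, a casein kinase that acts on heading date. Its signals were 1756 in the wild type and 2161 in the antisense collars, a log2 ratio of 0.30. The others, among them OsPRR59, OsZTL1 and OsFKF1, were not analysed here.

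None of the genes listed for photoperiodic flowering that reached the signal minimum was past 2-fold. Of 15 listed, 7 had a probe set and 4 reached the signal minimum, with a median log2 ratio of 0.25. Hd1, the CCT-domain factor that OsGI acts through, had signals of 327 and 287, a log2 ratio of -0.19. OsMADS50, a promoter of flowering, had signals of 1455 and 2351 (log2 ratio 0.69), and OsMADS56 had signals of 4293 and 4926 (0.20). Ehd3, a PHD-finger protein, had a log2 ratio of 0.30 by its brighter probe set and -0.13 by another. The florigen gene Hd3a stayed at signals of 5.79 and 8.28, both under the floor. DTH8 had signals of 12.1 and 63.9 and OsLFL1 of 6.75 and 13.1, none of which reached 100.

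The light receptor genes that could be read were not past 2-fold either. Such receptors set the clock to the day. Of 16 genes listed for light signalling, 6 were found by name in the gene table and 5 were measured. All 5 measured genes of the list had log2 ratios between -0.33 and 0.43, with a median of -0.10. The phytochrome gene PHYB, a red light receptor, had signals of 3788 and 5116 (0.43). PHYA had a log2 ratio of -0.33 by its brighter probe set, which can also bind other transcripts, and of 0.05 by the other. PHYC had signals of 2088 and 1946. The blue light receptor genes PHOT1a and PHOT2 had log2 ratios of -0.19 and 0.23. The photoreceptor transcripts thus differed in both directions and by small amounts.

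Genes of photosynthesis in the leaf blade were listed both as a daytime output of the clock and as a sign of blade tissue in the dissected collars. Of 5 measured genes, 1 was at least 2-fold lower in the antisense collars and none was 2-fold higher, beside 2.85% and 3.73% of all genes. Their median log2 ratio was -0.90. RCABP89, a light-harvesting chlorophyll a/b-binding protein, had signals of 7283 in the wild type and 1445 in the antisense collars, 5.04-fold lower (log2 ratio -2.33). CAB2R, of the same family, had signals of 25685 and 12844, just short of 2-fold lower, and its other probe set was 2.34-fold lower (12945 and 5531). RCABP69 had signals of 7679 and 4101, a log2 ratio of -0.90. All 3 light-harvesting genes had a log2 ratio below 0, as did 7514 of all 14742 genes. Only RCABP89 was past 2-fold by its brightest probe set. The light-harvesting genes resemble each other in sequence, so that their probe sets may share transcripts. By their suffix, the probe set of RCABP69 and the CAB2R probe set that was 2.34-fold lower can do so.

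None of the other photosynthesis genes was past 2-fold. RBCS, the small subunit of Rubisco, had signals of 14898 and 25699 by its brightest probe set (log2 ratio 0.79), which can bind related transcripts, and log2 ratios of 0.60 and -0.39 by 2 others. RCA, the activase of Rubisco, had log2 ratios from -0.37 to -0.16 over 4 probe sets. Nuclear genes of photosystem subunits were added after the light-harvesting values had been seen. Of these, PSAH had signals of 6979 and 6581 (log2 ratio -0.08), PSB28 of 693 and 681 (-0.03) and OsPSAG of 1321 and 906 (-0.54). The part of blade tissue, light or hour of day in the light-harvesting values was not tested.

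**Figure D3:**
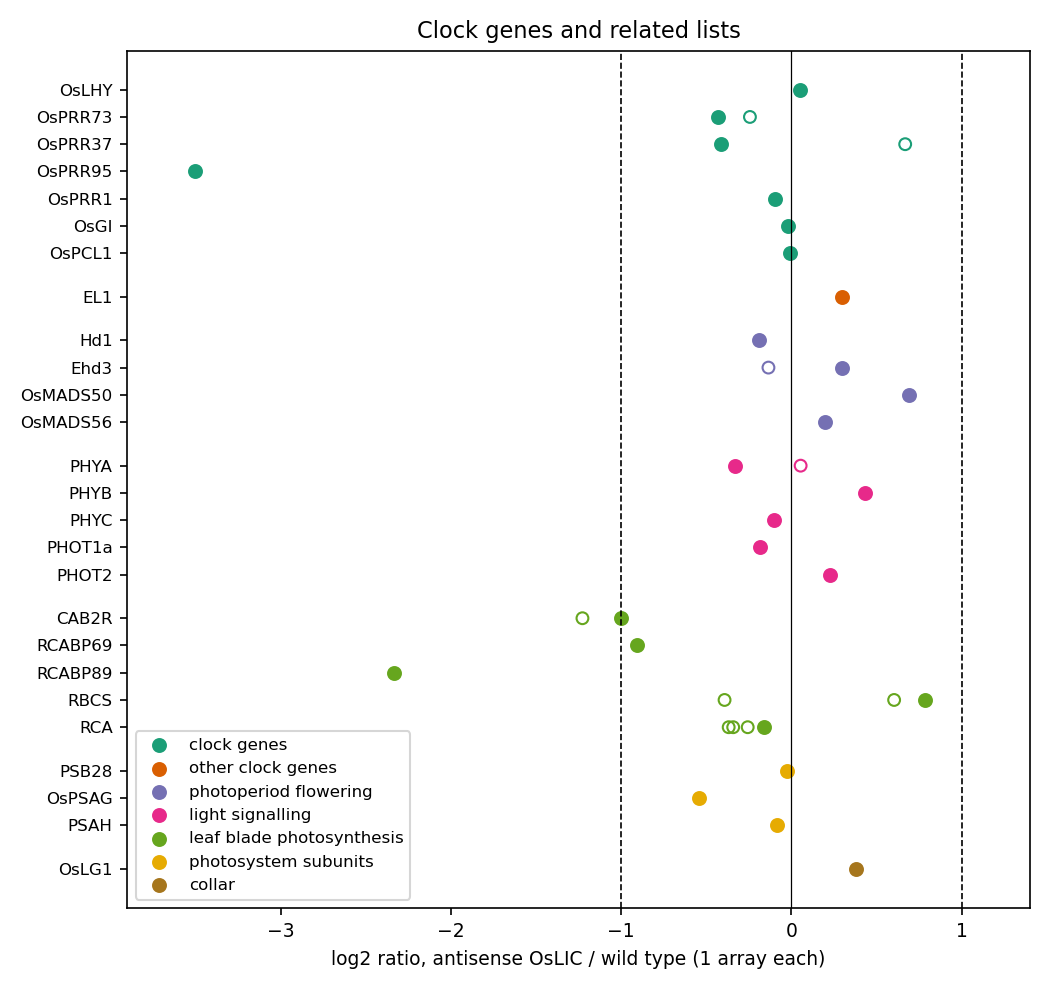
Log2 ratio of antisense OsLIC over wild type for the clock genes and the related lists, 1 row per gene, with filled points for the brightest probe set, open points for other probe sets past the signal minimum and 2-fold as dashed lines. OsPRR95 and RCABP89 lie well to the left of the 2-fold line, with the brightest probe set of CAB2R at the line, its other probe set past it and all other genes inside.

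The collar marker OsLG1, a factor needed to form the collar and ligule, was detected on both arrays, with signals of 494 and 641 (log2 ratio 0.38). Of 10 floral MADS-box genes with a probe set, listed as markers of young flowers, 8 stayed under a signal of 100 on both arrays. The others were OsMADS16, with signals of 1001 and 1179 (log2 ratio 0.24), and OsMADS17, with signals of 121 and 75.1 (-0.69). OsMADS58, a gene of the inner floral organs, had signals of 50.7 and 3.15, and OsMADS1 had 41.9 and 42.0. The ratio of 3′ to 5′ signal, a sign of RNA integrity, was 3.72 in the wild type and 2.64 in the antisense collars for a pair of actin controls. Another actin 3′ probe set (8935 and 9331) over the same 5′ signals (1527 and 1719) also gave a lower ratio in the antisense collars. A separate actin pair went the other way, with 3′ signals of 7503 and 8085 and 5′ signals of 2823 and 2822. The ratio was 1.49 and 1.62 for the bright pair of the glyceraldehyde-3-phosphate dehydrogenase control and 2.20 and 2.30 for the Cyph control. A dim pair of the same dehydrogenase had ratios of 4.61 and 18.0, with 5′ signals of 24.7 and 4.93, and the dim ef1a control had 0.395 and 0.277. The part of RNA quality in the OsPRR95 value was not tested.

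By the difference in log2 ratio over the 2 arrays, the named gene nearest to OsPRR95 was OsHsp18.1, a small heat shock protein, with signals of 1847 and 144 (log2 ratio -3.69). It was followed by OST1B, with signals of 3464 and 361 (-3.26), and the heat shock factor gene OsHsf-24, with 700 and 74.7 (-3.23). The small heat shock protein gene OsHsp18.0 came next, with 8101 and 585 (-3.79), although it stood at -0.38 and -0.13 by its remaining probe sets. A ratio of 2 values is a weak measure of likeness, and genes without a name were not considered. As 3 of these 4 are named as heat shock proteins or heat shock factors, the small heat shock protein genes were counted as well, a group already known to be lower on these arrays. Of 13 measured, 6 were at least 2-fold lower in the antisense collars and none was 2-fold higher, with a median log2 ratio of -0.81. The shares over all genes were 2.85% and 3.73%, and the median -0.01. The 6 lower genes include OsHsp18.1 and OsHsp18.0, which prompted the count. The count therefore carries no weight against these shares. Heat shock genes respond to temperature, and their part in the OsPRR95 value was not tested.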

How the data were processed

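RNA of collars was read on the Affymetrix rice array, with 1 array for wild type and 1 for antisense OsLIC. The deposited values are linear intensity signals, 1 per probe set, which the authors computed with GCOS (version not given in the sources used here) and scaled to a common intensity of 500. The trimmed mean, with 2% left off each end, was 500.1 on both arrays. GCOS detection calls were not used here.

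The 57381 probe sets include 187 control or reporter probe sets, which were left out. Probe sets were joined by Entrez identifier to RefSeq names, with 22436 probe sets given 1 gene, 95 several and 34850 none. A listed name was used when it belonged to exactly 1 gene. Each gene was represented by its brightest probe set past the minimum, and every other probe set of a clock gene is given too. The members and lists were chosen with earlier results of these data known. Named were all 7 clock genes, OsLIC, of each list the genes past 2-fold and otherwise up to 4 with the largest ratio, and the 4 named genes nearest to OsPRR95 with a signal of 500 or more and neither the suffix _x_at nor _s_at. The photosystem genes, PSB28, PSAH and OsPSAG, the small heat shock protein count and genes that stayed under the signal minimum fall outside this rule, and were named after their values were seen, as were PHYC, RCA and the housekeeping controls.

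No test was made. The 11 alternatives were median centring, quantile normalization, a loess fit on signal (fraction 0.4), a pseudocount of 50, minima of 50, 200, 500 or none, a 3-fold threshold, no _x_at or _s_at probe sets, and the mean over a gene's probe sets. The code was tested on simulated data. Python 3.11.15, numpy 2.4.6, pandas 2.3.3 and statsmodels 0.14.6 were used.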

Additional observations from a re-analysis of the deposited data

How the results depend on the processing

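OsPRR95 kept a log2 ratio between -3.51 and -3.44 under the 10 alternatives other than the 3-fold threshold, which moves no ratio. Only median centring, quantile normalization, the loess fit and the pseudocount could alter it. The minima, the loss of _x_at and _s_at probe sets and the mean left its single bright probe set at -3.50. OsPRR95 was the 1 clock gene past 2-fold, or past 3-fold, under all 11. No clock gene was higher by as much under any of them. OsPRR73 stayed between -0.45 and -0.34 and OsGI between -0.035 and -0.0048, while OsPCL1, from -0.030 to 0.0050, and OsLHY, from 0.04 to 0.08, were near 0 throughout. OsPRR37 had a log2 ratio of 0.13 as the mean over its probe sets, and 0.67 by its dimmer probe set alone, a comparison added after the data were seen. CAB2R was at least 2-fold lower under 3 of 10 alternatives, and RCABP89 under all 10. RCABP89 too has a single bright probe set, so that most of these settings could not move it. The 18 measured genes of the other lists moved by less than 0.5 under each alternative that gave them a ratio. The photosystem genes, the small heat shock protein genes and the genes nearest to OsPRR95 were not put through the alternatives.

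The background depended on the signal minimum and the threshold. The probe sets past the limit were 3306 lower and 3807 higher with a minimum of 50, 581 and 689 with 200, 306 and 387 with 500, and 4229 and 4860 with none. A pseudocount of 50 gave 700 and 861, and a 3-fold threshold 507 and 666. Dim signals limit OsLHY and the dimmer probe set of OsPRR37 most. No paired analysis was possible because each group has 1 array.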
